A study of Mus musculus with 12 samples.

Results

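The genes described here carry the signal of the neuropeptides PACAP and VIP through cyclic AMP (cAMP) in the mouse pituitary. They are Adcyap1, Adcyap1r1, Vipr1, Vipr2, Prkaca, Prkar1a, Creb1, Crem, Pde4b and Pde4d, and all probe sets whose platform annotation named only 1 of these genes were taken, which gave 31 of the 45037 probe sets that are no controls, and 10 of 18193 genes. RNA was hybridized to 12 Affymetrix Mouse Genome 430 2.0 arrays, on which a probe set is a group of short probes for 1 transcript. Of these arrays, 2 held tissue of homozygous POMC KO mice, which lack both copies of the pro-opiomelanocortin gene, 8 held tissue of heterozygous POMC KO mice, which lack 1 copy, and 2 held pituitary of normal mice. No mouse was treated, and neither age nor sex is given for any array. Per the methods, the KO tissue came from pituitary tumors that arose on their own, so genotype and tumor cannot be told apart in these comparisons, and tumors were compared with pooled normal pituitary, whereas the series' design text counts 1 mouse for each array, normal ones included. The sources thus differ on whether a normal array held RNA of 1 gland or of several, and the spread of these 2 arrays may not be that between animals.

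PACAP and VIP are related peptides that bind receptors of class B, the family of G protein-coupled receptors for larger peptide hormones, and these receptors act through the stimulatory G protein on adenylyl cyclase. The cAMP that is made releases the catalytic subunits of protein kinase A from their regulatory subunits, the kinase phosphorylates the transcription factor CREB, and phosphodiesterases end the signal by breaking cAMP down. In the pituitary PACAP and VIP reach the cells from the hypothalamus and from local sources, and they act on hormone secreting cells and on folliculostellate cells, the non-endocrine support cells of the anterior lobe.

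CREB binds the cAMP response element TGACGTCA and its shorter form TGACG, called the short site here, which were searched on both strands in RefSeq promoter windows from 250 bases before to 50 bases after a start site (build GRCm38.p6). The search covered 9 of the 10 genes, and Crem was left out of it. Of the 19 windows searched, some of which overlap, 8 held at least the short site. Over all 32851 windows of that length, 1.79% held the full element and 20.8% held the short site on either strand. In the 9 genes searched, the full element was found once, at 1 position of Prkar1a that lies in 2 overlapping windows. The windows below belong to Pde4b and Adcyap1r1, the genes of the set that were called against normal pituitary, and to Vip, the other ligand, and the short site is in capitals. In the window of Pde4b at chr4:102421305-102421604, plus strand, the short site lies on the opposite strand and begins at position -34 from the start site, and 3 further windows of Pde4b held none. The window of Adcyap1r1 at chr6:55451728-55452027, plus strand, held none, and the window of Vip, which encodes VIP, at chr10:5638968-5639267, plus strand, held the short site at position -79. A match describes only these letters.
Pde4b: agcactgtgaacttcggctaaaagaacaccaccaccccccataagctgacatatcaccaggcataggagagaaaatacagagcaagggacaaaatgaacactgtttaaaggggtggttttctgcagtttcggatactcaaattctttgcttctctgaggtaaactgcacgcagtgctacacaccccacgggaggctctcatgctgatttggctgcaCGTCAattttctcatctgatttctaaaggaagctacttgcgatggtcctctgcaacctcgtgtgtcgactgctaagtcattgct
Adcyap1r1: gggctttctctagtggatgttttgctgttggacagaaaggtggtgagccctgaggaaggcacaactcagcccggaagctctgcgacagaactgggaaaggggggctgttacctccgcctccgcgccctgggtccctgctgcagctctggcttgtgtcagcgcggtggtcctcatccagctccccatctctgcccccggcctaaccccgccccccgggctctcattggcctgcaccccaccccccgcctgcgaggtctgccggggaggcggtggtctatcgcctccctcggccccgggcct
Vip: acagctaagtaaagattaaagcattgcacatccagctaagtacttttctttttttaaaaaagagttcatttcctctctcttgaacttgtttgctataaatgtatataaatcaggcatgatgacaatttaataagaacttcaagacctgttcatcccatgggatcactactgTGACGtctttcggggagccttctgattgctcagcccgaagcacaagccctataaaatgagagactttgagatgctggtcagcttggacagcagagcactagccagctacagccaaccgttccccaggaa

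Values are log2 signals, so that a difference of 1 is 2-fold, and they are compared between samples within a probe set, not between probe sets. Within a genotype, tumor arrays with neighboring numbers formed near-identical pairs, with correlations of 0.997 to 0.998 across probe sets and 0 to 4 probe sets more than 2-fold apart, against 433 to 982 such probe sets between arrays of different heterozygous pairs and 309 between the normal arrays. Although the design text counts each array as a mouse, each pair was averaged, which left 1 homozygous sample, 4 heterozygous samples and 2 normal samples. With the 12 arrays as separate samples, 2, 4 and 0 probe sets of the 10 genes were called in the 3 comparisons described below, as with the averages. The homozygous sample therefore has no SD, and its errors rest on the spread in the other groups. Heterozygous values are given below in the order of arrays 1-2, 3-4, 5-6 and 7-8. Pomc, the targeted gene, had a log2 signal of 7.18 in the homozygous sample, 15.25 ± 0.07 across heterozygous samples (SD, n = 4) and 15.09 ± 0.02 (SD, n = 2) in normal samples. Xist, which is expressed in female cells, was high in the homozygous sample (11.20) and in heterozygous samples 3-4 and 7-8 (10.93 and 11.25), and it was 5.07 or lower in the other samples, so sex differed within the heterozygous group and between the homozygous sample and the normal samples. Probe sets that reached the overall median signal (5.74) on 2 or more arrays were tested with limma, and a probe set is called here when it differed by more than 2-fold with an adjusted p below 0.05. Each call of the 10 genes and of the further pathway genes, but not those of cell type markers, was repeated under 20 to 22 alternatives, among them other filters and normalizations and the omission of each sample in turn.

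Of the 31 probe sets, 16 passed this filter, and they belong to 7 genes. Adcyap1, Vipr1 and Vipr2 had no tested probe set. In the homozygous sample 2 of the 16 were called against normal pituitary, 1 of Pde4b higher and 1 of Adcyap1r1 lower, where 2.33% of all 24486 tested probe sets were called. In heterozygous tumors 4 of the 16 were called, 3 of Pde4b higher and 1 of Adcyap1r1 lower, where 8.68% of all were called. One of the Pde4b probe sets, 1442700_at, passed the filter through tumor arrays alone, and of the other 15 probe sets 1 was called in the homozygous sample (lower) and 3 in heterozygous tumors (2 higher, 1 lower). Between the homozygous sample and heterozygous tumors 0 of the 16 were called by limma or under any of 21 alternatives, where 0.249% of all were, and 2 of the 16, both higher, had an unadjusted p under 0.05. With the brightest tested probe set standing for each gene, 0 genes were higher and 1 was lower in the homozygous sample (1.43% and 1.32% of all 12316 genes, and 2 were higher at an unadjusted p under 0.05), and 1 was higher and 1 lower in heterozygous tumors (5.53% and 4.55%). Between homozygous and heterozygous tumors 0 genes were higher and 0 lower (0.244% and 0.0487%), and 2 were higher and 0 lower at an unadjusted p under 0.05. The median log2 fold change of the 7 genes was 0.14 in the homozygous sample and 0.11 in heterozygous tumors against normal, beside -0.03 and -0.00094 for all genes, and 0.03 between the tumor genotypes, beside -0.03. With 7 genes these shares describe the list and carry no test. Both tumor genotypes were compared with the same 2 normal samples, so the comparisons are not independent.

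**Figure D1:**
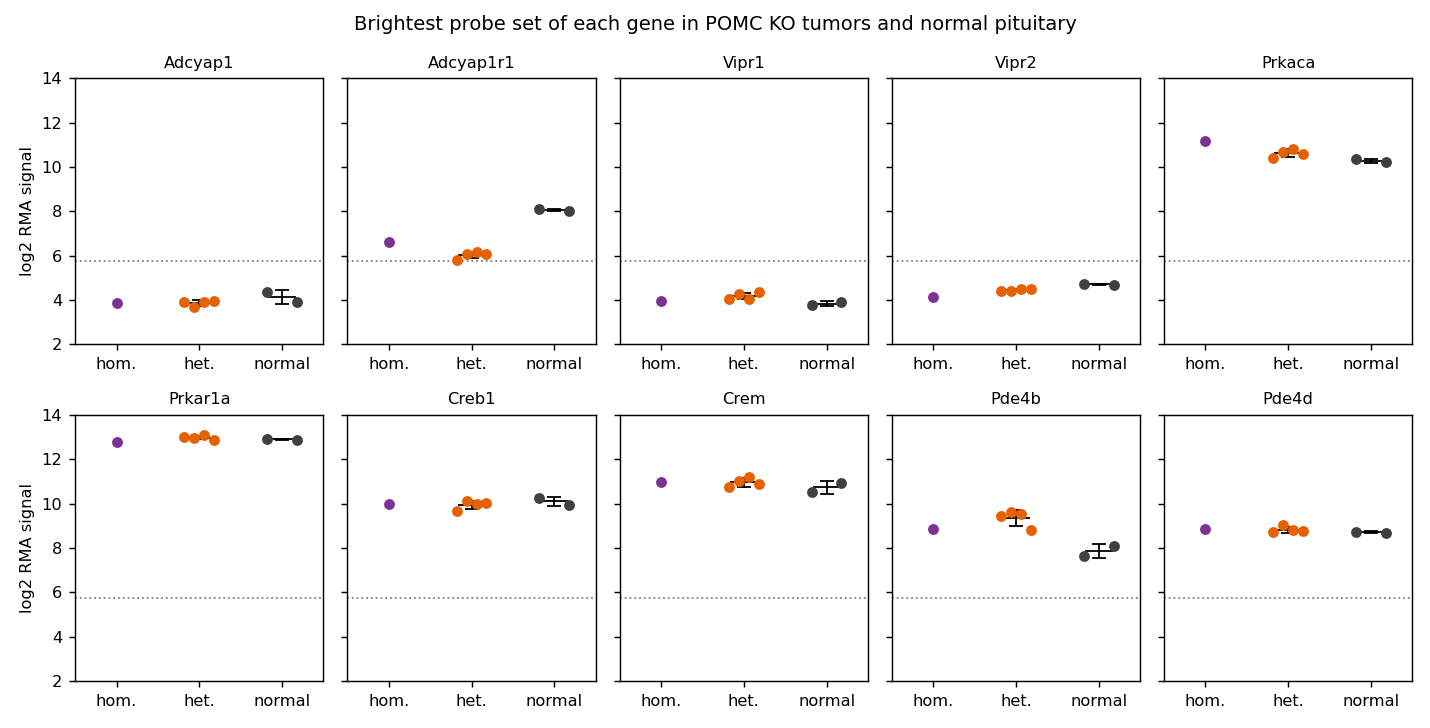
Log2 RMA signal (y axis) of the brightest probe set of each of the 10 genes in the homozygous sample (hom., 1 point), the heterozygous samples (het., 4 points) and the normal samples (2 points), with the mean and SD where there is more than 1 sample and the median of all values (5.74) as a dotted line. Adcyap1r1 lies lower and Pde4b higher in all tumor samples than in both normal samples, and Adcyap1, Vipr1 and Vipr2 lie under the dotted line in every sample.

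Adcyap1, the gene of PACAP, was near the floor of the array in every group. Its brighter probe set (1423427_at) had a log2 signal of 3.87 in the homozygous sample, 3.89, 3.69, 3.93 and 3.94 in heterozygous samples and 4.34 and 3.91 in normal samples. The groups overlapped, with normal sample 1 alone above 4. The other probe set of Adcyap1 (1441778_at) lay between 2.76 and 2.93 in all samples. Levels this low are under the median of all values, and a difference between groups was not detectable with these probe sets. In whole pituitary RNA, fewer cells of a type and less RNA per cell cannot be told apart, for this gene and all those below.

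Among the receptors, Adcyap1r1 fell in both tumor genotypes, and Vipr1 and Vipr2 were too low to be compared. Adcyap1r1 encodes PAC1, the receptor that prefers PACAP to VIP. Its brightest probe set (1429022_at) had a log2 signal of 6.61 in the homozygous sample, 5.82, 6.09, 6.15 and 6.07 in heterozygous samples and 8.11 and 8.01 in normal samples. Every tumor sample lay below both normal samples, and the homozygous sample lay above all 4 heterozygous samples. Against normal pituitary, Adcyap1r1 was 2.73-fold lower in the homozygous sample (log2 fold change -1.45, SE 0.18, adjusted p = 0.0142 from limma). In heterozygous tumors, which averaged 6.03 ± 0.14 (SD, n = 4) against 8.06 ± 0.07 (SD, n = 2) in normal pituitary, it was 4.08-fold lower (log2 fold change -2.03, SE 0.13, adjusted p = 0.000267). The difference between the homozygous sample and heterozygous tumors, 0.58 (95% interval 0.19 to 0.97), did not pass the test (adjusted p = 0.318). With 1 normal sample left out, the homozygous call was lost (adjusted p = 0.0769 without normal sample 1 and 0.0651 without normal sample 2), while the heterozygous call held in all 22 alternatives, with adjusted p up to 0.00557.

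The other tested probe set of Adcyap1r1 did not show this difference. Probe set 1450799_at had a log2 signal of 5.84 in the homozygous sample, 6.19, 5.96, 6.01 and 5.71 in heterozygous samples and 6.24 and 6.03 in normal samples, and the groups overlapped. Its log2 fold changes were -0.30 in the homozygous sample (95% interval -0.81 to 0.21) and -0.17 in heterozygous tumors (-0.53 to 0.19). With the mean over both tested probe sets in place of the brightest, the log2 fold change was -0.87 in the homozygous sample (adjusted p = 0.0393), which is under 2-fold, and -1.10 in heterozygous tumors (adjusted p = 0.000965). Probe set 1439042_at lay at 3.18 in the homozygous sample, 3.11 to 3.16 in heterozygous samples and 3.36 and 4.01 in normal samples, and it was not tested. Every tumor sample was below both normal samples there too, at the floor of the array, and with no filter on low values its log2 fold changes were -0.51 and -0.55 (limma adjusted p = 0.391 and 0.0749). The place of each probe set on the transcript was not analysed here.

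Vipr1 and Vipr2 encode VPAC1 and VPAC2, which bind PACAP and VIP about equally well. The brighter probe set of Vipr1 (1455555_at) had a log2 signal of 3.94 in the homozygous sample, 4.06, 4.25, 4.06 and 4.34 in heterozygous samples and 3.76 and 3.90 in normal samples. The other (1423004_at) lay at 3.13 in the homozygous sample, 3.52, 3.41, 3.39 and 3.44 in heterozygous samples and 3.32 and 3.001 in normal samples. With both probe sets all heterozygous samples were above both normal samples, at levels where the size of a difference is not exact. The probe set of Vipr2 (1421391_at) had a log2 signal of 4.14 in the homozygous sample, 4.40, 4.40, 4.48 and 4.49 in heterozygous samples and 4.72 and 4.68 in normal samples. Here the order was homozygous, heterozygous, normal from low to high, with no overlap. With no filter on low values, the log2 fold change of Vipr2 was -0.56 in the homozygous sample (limma adjusted p = 0.0856) and -0.26 in heterozygous tumors (adjusted p = 0.103), and the probe sets of Adcyap1 and Vipr1 had adjusted p from 0.101 to 0.9502 against normal. None of these genes passed the test, and at this signal a change in their transcripts may not be visible.

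Markers of other pituitary cells also differed where Adcyap1r1 did. Over all genes 1.32% were called lower in the homozygous sample and 4.55% in heterozygous tumors. Of 5 posterior lobe glia markers tested, 1 was called lower in the homozygous sample and 4 in heterozygous tumors, none higher, and their mean log2 signal was 7.18 in the homozygous sample, 5.98 to 6.91 in heterozygous samples and 8.59 and 8.55 in normal samples. Of 7 gonadotroph markers, 3 were lower in the homozygous sample and 6 in heterozygous tumors, none higher, with means of 8.36 in the homozygous sample, 6.22 to 7.60 in heterozygous samples, and 10.53 and 10.54 in normal samples. Of 8 folliculostellate and progenitor markers, 1 was lower in the homozygous sample, and 4 were lower and 1 higher in heterozygous tumors, with means of 8.13 in the homozygous sample, 7.15 to 8.04 in heterozygous samples and 8.64 and 8.88 in normal samples. Of 5 thyrotroph markers, 2 of which are also in the gonadotroph list, 1 was lower in the homozygous sample and 4 in heterozygous tumors, none higher, with means of 9.60 in the homozygous sample, 6.94 to 8.66 in heterozygous samples and 10.57 and 10.64 in normal samples. In these 4 lists, as with Adcyap1r1, every tumor sample lay below both normal samples and the homozygous sample lay above all heterozygous samples. Over the whole array, too, the homozygous arrays were nearer to normal. They had 1792 to 1981 probe sets more than 2-fold from a normal array, against 2549 to 3585 for heterozygous arrays. Of 4 somatotroph and lactotroph markers, 1 was lower in the homozygous sample and 2 in heterozygous tumors, and their mean was also lower in every tumor sample (10.71 in the homozygous sample, 9.65 to 11.03 in heterozygous samples, 11.95 and 12.01 in normal samples). The 7 melanotroph and corticotroph markers, Pomc among them, had another order. Their mean was 8.95 in the homozygous sample, below the heterozygous samples (9.54 to 9.67), and 9.97 and 9.94 in normal samples. The posterior lobe markers Nkx2-1 and Rax did not pass the filter. The part of these cells in the level of Adcyap1r1 was not tested.

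The genes whose brightest probe sets ran most like that of Adcyap1r1 over the 7 samples were Proser2 (Pearson r = 0.998), Nmnat2, an enzyme of NAD synthesis (r = 0.998), and Kank1, an adaptor of the cytoskeleton (r = 0.995). The samples fall into groups and share arrays, so these values mainly follow the difference between tumors and normal pituitary and are given as a description. Nmnat2, for example, had a log2 signal of 7.20 in the homozygous sample, 6.597, 6.69, 6.87 and 6.68 in heterozygous samples and 8.31 and 8.26 in normal samples.

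**Figure D2:**
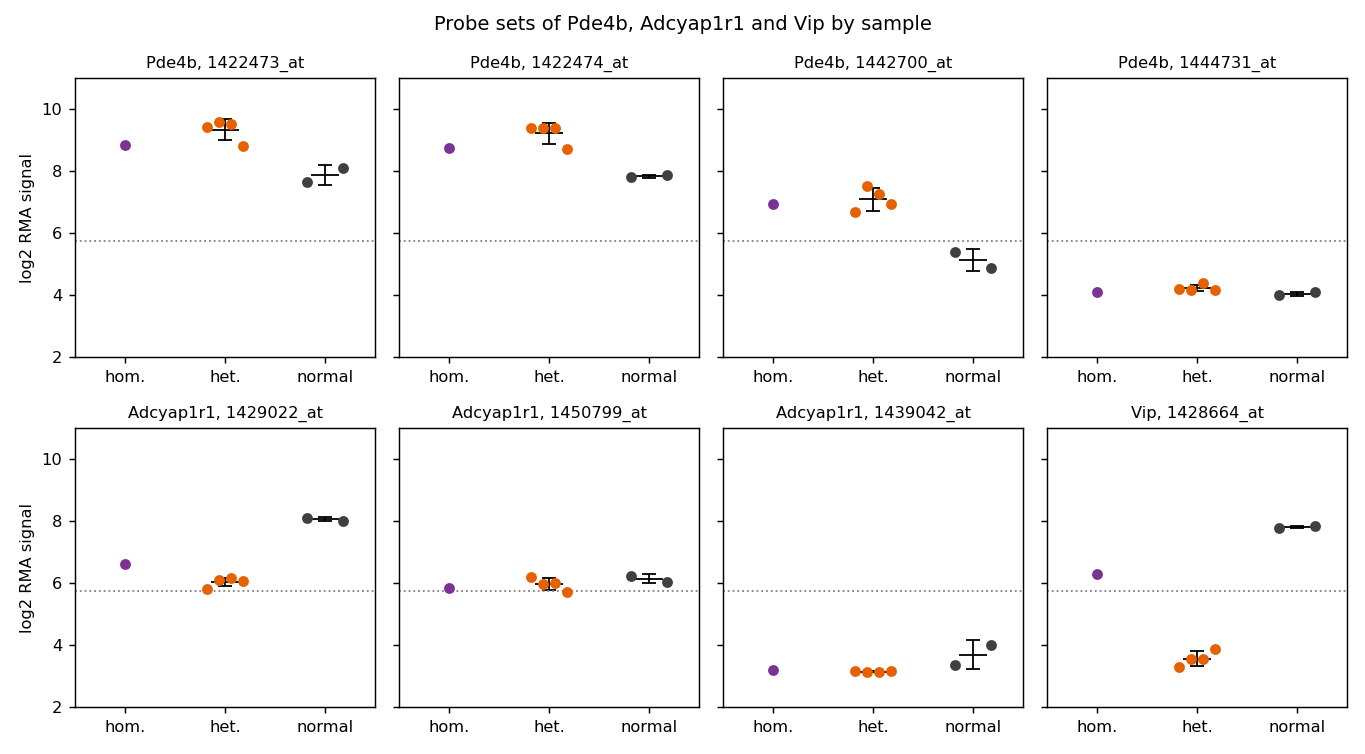
Log2 RMA signal (y axis) of the 4 brightest probe sets of Pde4b, the 3 probe sets of Adcyap1r1 and the probe set of Vip, by sample as points, with mean and SD for the 4 heterozygous (het.) and 2 normal samples and the median of all values (5.74) as a dotted line. The Pde4b probe sets 1422473_at, 1422474_at and 1442700_at are higher in every tumor sample than in both normal samples, 1 of 3 Adcyap1r1 probe sets shows a clear fall, and Vip in the homozygous sample (6.30) lies between the heterozygous and the normal samples.

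Vip, the other ligand of these receptors, fell in both tumor genotypes and by more in heterozygous tumors. Its log2 signal (1428664_at) was 6.30 in the homozygous sample, 3.29, 3.54, 3.53 and 3.87 in heterozygous samples and 7.79 and 7.83 in normal samples. The 3 groups did not overlap, and the homozygous sample lay between the others. Against normal pituitary, Vip was 2.84-fold lower in the homozygous sample (log2 fold change -1.51, SE 0.23, limma adjusted p = 0.0258) and 19.1-fold lower in heterozygous tumors (log2 fold change -4.25, SE 0.16, adjusted p = 9.41e-05). The heterozygous samples lay below the overall median, which leaves the size of their fall inexact, and Vip passed the filter through the other groups alone. A stricter filter on 6 arrays left Vip untested and is not among its 20 alternatives. The homozygous sample was higher than heterozygous tumors by 2.75 (SE 0.21, adjusted p = 0.00349). The homozygous call against normal was lost without heterozygous sample 3-4 (adjusted p = 0.0535), without normal sample 1 (0.105) or 2 (0.107), and with the pairs of arrays as a random block (0.148), and the other 2 calls of Vip held in all 20 alternatives.

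Prkaca and Prkar1a, which encode subunits of protein kinase A, were called in no comparison. Prkaca encodes the main catalytic subunit of this kinase. The brighter probe set of Prkaca (1447720_x_at) had a log2 signal of 11.18 in the homozygous sample, 10.41, 10.69, 10.83 and 10.59 in heterozygous samples and 10.35 and 10.21 in normal samples, so that all tumor samples lay above both normal samples and the homozygous sample was the highest. Against normal, the log2 fold change reached 0.90 in the homozygous sample (95% interval 0.42 to 1.37, adjusted p = 0.0691) and 0.35 in heterozygous tumors (0.01 to 0.68, adjusted p = 0.124), and the homozygous sample differed from heterozygous tumors by 0.55 (0.12 to 0.98, adjusted p = 0.407). The suffix of this probe set marks probes that can also bind other transcripts. The other probe set (1450519_a_at) ran the opposite way, with 9.03 in the homozygous sample, 9.55, 8.998, 9.04 and 8.95 in heterozygous samples and 9.38 and 9.51 in normal samples, and its log2 fold changes were -0.41 (-1.03 to 0.20) and -0.31 (-0.75 to 0.12). In that probe set heterozygous sample 1-2 stood apart from the other heterozygous samples, above both normal samples. The probe sets of Prkaca thus gave no common direction.

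Prkar1a encodes the type I alpha regulatory subunit, which holds the kinase inactive, and both of its tested probe sets were among the bright ones. Probe set 1452032_at had a log2 signal of 12.78 in the homozygous sample, 12.99, 12.97, 13.08 and 12.89 in heterozygous samples and 12.92 and 12.90 in normal samples and thus between 12.78 and 13.08 throughout. Its log2 fold change was -0.13 in the homozygous sample (95% interval -0.49 to 0.22) and 0.08 in heterozygous tumors (-0.18 to 0.33). Probe set 1425550_a_at had 12.64 in the homozygous sample, 12.89, 12.74, 13.02 and 12.65 in heterozygous samples and 12.39 and 12.49 in normal samples, with log2 fold changes of 0.20 (-0.25 to 0.65) and 0.38 (0.07 to 0.70, adjusted p = 0.0836). All of its tumor samples lay above both normal samples, by less than 2-fold. The untested probe set (1447635_at) lay between 4.85 and 5.28.

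Creb1 and Crem, the transcription factors that bind cAMP response elements, were called in no comparison. Creb1 activates transcription when it is phosphorylated, and Crem yields activators as well as the repressor ICER, which was not measured apart from them here. The brightest Creb1 probe set (1452901_at) had a log2 signal of 9.99 in the homozygous sample, 9.66, 10.11, 9.97 and 10.04 in heterozygous samples and 10.25 and 9.95 in normal samples, and the groups overlapped. Its log2 fold changes were -0.11 in the homozygous sample (95% interval -0.64 to 0.42) and -0.15 in heterozygous tumors (-0.53 to 0.22). Over all 4 tested probe sets of Creb1 they ranged from -0.11 to 0.39 and from -0.15 to 0.20, with no adjusted p under 0.415. The 95% intervals of all 4 lay within 2-fold in both tumor genotypes.

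The brightest Crem probe set (1449037_at) had a log2 signal of 10.99 in the homozygous sample, 10.74, 11.01, 11.23 and 10.91 in heterozygous samples and 10.54 and 10.94 in normal samples. The other tested one (1418322_at) had 9.87 in the homozygous sample, 9.32, 9.96, 9.90 and 9.73 in heterozygous samples and 10.07 and 10.18 in normal samples. The first overlapped between groups, and in the second every tumor sample lay below both normal samples. The log2 fold changes were 0.25 (95% interval -0.32 to 0.83) in the homozygous sample and 0.24 (-0.17 to 0.64) in heterozygous tumors for the first, and -0.25 (-0.88 to 0.37) and -0.40 (-0.84 to 0.04) for the second, so the probe sets of Crem differed in sign. The 2 untested probe sets lay at 5.14 to 5.49 and at 3.15 to 3.41.

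Pde4b, which degrades cAMP and is also expressed by leukocytes, rose in heterozygous tumors with both tested probe sets that passed the filter level in every group. The annotation gives both the same source sequence, so they are not independent readings. Probe set 1422473_at had a log2 signal of 8.84 in the homozygous sample, 9.43, 9.61, 9.53 and 8.83 in heterozygous samples and 7.66 and 8.10 in normal samples. Probe set 1422474_at had 8.75 in the homozygous sample, 9.39, 9.40, 9.39 and 8.73 in heterozygous samples and 7.81 and 7.88 in normal samples. With both, every tumor sample lay above both normal samples, and the homozygous sample lay beside heterozygous sample 7-8, below the other heterozygous samples. In heterozygous tumors Pde4b was 2.77-fold higher by the first (log2 fold change 1.47, SE 0.24, adjusted p = 0.00568 from limma) and 2.61-fold higher by the second (1.38, SE 0.21, adjusted p = 0.00416). The homozygous sample had log2 fold changes of 0.96 (95% interval 0.17 to 1.76, adjusted p = 0.193) and 0.91 (0.22 to 1.60, adjusted p = 0.164), which did not pass the test. The heterozygous call of probe set 1422473_at was lost without normal sample 1 (log2 fold change 1.25, adjusted p = 0.0604), while that of 1422474_at held in all 21 alternatives.

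The third tested probe set of Pde4b (1442700_at) was called in both tumor genotypes. It had a log2 signal of 6.94 in the homozygous sample, 6.68, 7.52, 7.27 and 6.93 in heterozygous samples and 5.40 and 4.89 in normal samples. The tumor samples lay above the median of all values and the normal samples below it, so the probe set was tested only because it is high in tumors, and the size of the difference is not exact. It is given as a description beside the other 2 probe sets, not as further support. The log2 fold change was 1.80 in the homozygous sample (SE 0.36, adjusted p = 0.0490) and 1.96 in heterozygous tumors (SE 0.25, adjusted p = 0.00230). The homozygous call lies at the threshold and was kept in 11 of 21 alternatives, with adjusted p from 0.000786 to 0.172, and it was lost without either normal sample and without heterozygous sample 3-4, 5-6 or 7-8. The heterozygous call held in all 21, among them the fit with no filter. The homozygous sample did not differ detectably from heterozygous tumors with any of these probe sets: the differences were -0.51 (95% interval -1.23 to 0.22), -0.48 (-1.11 to 0.15) and -0.16 (-0.92 to 0.61). The other 3 probe sets of Pde4b lay at 4.39 or lower in every sample and were not tested.

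Macrophage markers were higher beside Pde4b. Of 13 tested, 2 were called higher in the homozygous sample and 10 in heterozygous tumors, none lower, where 1.43% and 5.53% of all genes were called higher. The mean log2 signal of these markers was 7.71 in the homozygous sample, 8.21, 8.65, 8.29 and 7.99 in heterozygous samples and 6.50 and 6.75 in normal samples. By this mean every tumor sample lay above both normal samples, and the homozygous sample was the lowest of the tumors. Among heterozygous samples 3-4 was the highest and 7-8 the lowest. For Pde4b, sample 7-8 was the lowest tumor sample with 1422473_at (8.83) and 1422474_at (8.73), just under the homozygous sample (8.84 and 8.75). Sample 3-4 was the highest with 1422473_at, whereas with 1422474_at samples 1-2, 3-4 and 5-6 were nearly equal (9.39, 9.40 and 9.39). With 1442700_at sample 1-2 was the lowest. Lyz2, the lysozyme of myeloid cells, had log2 fold changes of 3.10 in the homozygous sample and 4.37 in heterozygous tumors. The macrophage marker Itgam did not pass the filter. Of 3 T cell markers tested, 1 was called higher in the homozygous sample and 0 in heterozygous tumors. Among heterozygous arrays, those of sample 7-8 also had the fewest probe sets more than 2-fold from a normal array (2549 to 2760). The part of macrophages and T cells in the level of Pde4b was not tested.

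Pde4d, a phosphodiesterase of the same family, was called in no comparison. Its tested probe set (1435280_at) had a log2 signal of 8.85 in the homozygous sample, 8.70, 9.02, 8.81 and 8.75 in heterozygous samples and 8.74 and 8.68 in normal samples. The log2 fold changes were 0.14 in the homozygous sample (95% interval -0.28 to 0.56) and 0.11 in heterozygous tumors (-0.18 to 0.41), and both intervals lay within 2-fold. Its other probe set (1459311_at) lay between 3.06 and 3.68 and was not tested.

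**Figure D3:**
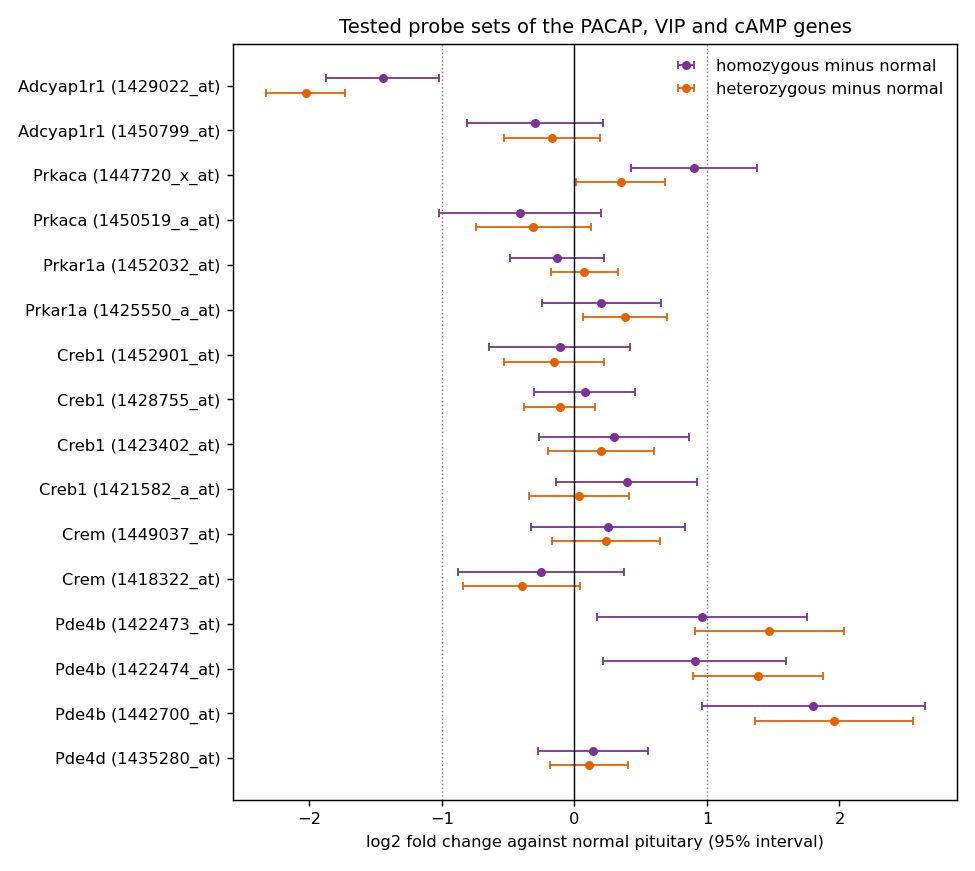
Log2 fold change against normal pituitary (x axis) of the 16 tested probe sets, with 95% intervals from limma, for the homozygous sample (upper point of each pair) and heterozygous tumors (lower point), and dotted lines at 2-fold in either direction. One probe set of Adcyap1r1 lies at -1.45 and -2.03 and the 3 probe sets of Pde4b lie at 0.91 to 1.96, while those of Prkar1a, Creb1, Crem and Pde4d lie between the dotted lines.

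The rest of the cAMP pathway was taken as lists of 91 further genes, of which 86 were on the array and 66 were tested. In the homozygous sample limma called 0 higher and 1, Vip, lower (6 and 6 at an unadjusted p under 0.05), and in heterozygous tumors 6 were higher and 10 lower, 16 in all. Vip and Crhr1, 2 of the 10 lower, were under the filter level in every heterozygous sample. Without the 4 genes that had 1 of these 2 groups under that level, 6 of 62 were higher and 8 lower in heterozygous tumors. Over all tested genes 1.43% were called higher and 1.32% lower in the homozygous sample, and 5.53% higher and 4.55% lower in heterozygous tumors. Between the homozygous sample and heterozygous tumors 3 were called higher and 0 lower, and 7 were higher and 6 lower at an unadjusted p under 0.05. These 3, Vip, Crhr1 and Akap6, were under the filter level in every heterozygous sample, so that they were tested through the other groups alone. The median log2 fold change was -0.01 in the homozygous sample, -0.08 in heterozygous tumors and -0.04 between them, beside -0.03, -0.00094 and -0.03 for all genes. These lists too were chosen with earlier results of these data known.

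Of 5 other receptors of class B tested, 3 (Ghrhr, Crhr1 and Calcrl) were called lower and 0 higher in heterozygous tumors, as was 1 of 2 partner proteins, Ramp3, where 4.55% of all genes were called lower. None of these 7 was called in the homozygous sample, where 1 was higher and 2 were lower at an unadjusted p under 0.05. Crhr1 was under the filter level in every heterozygous sample, so it was tested, and counted among the 3, through the other groups alone. Ghrhr, the receptor of growth hormone releasing hormone, had a log2 signal of 6.45 in the homozygous sample, 5.66, 6.17, 6.40 and 7.96 in heterozygous samples and 9.63 and 9.72 in normal samples. Its log2 fold change was -3.22 in the homozygous sample (SE 0.79, adjusted p = 0.0857) and -3.13 in heterozygous tumors (SE 0.56, adjusted p = 0.00805), and the heterozygous call was lost without either normal sample. Calcrl, the calcitonin receptor-like receptor, and Ramp3, a partner protein of such receptors, had log2 fold changes of -1.07 (adjusted p = 0.00566) and -1.09 (adjusted p = 0.00112) in heterozygous tumors, and the call of Calcrl was lost without heterozygous sample 1-2.

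Crhr1, the receptor of corticotropin releasing hormone, separated the tumor genotypes. It had a log2 signal of 7.53 in the homozygous sample, 5.07, 5.21, 5.37 and 5.47 in heterozygous samples and 6.77 and 6.67 in normal samples. The homozygous sample was the highest and the heterozygous samples, all under the median of all values, were the lowest, without overlap. A stricter filter on 6 arrays left Crhr1 untested and is not among its 20 alternatives. The homozygous sample was higher than heterozygous tumors by 2.25 (SE 0.18, adjusted p = 0.00368 from limma), and this call and the fall in heterozygous tumors held in all 20 alternatives. Akap6, an anchoring protein that places protein kinase A in the cell, showed the same order, with 7.19 in the homozygous sample, 5.44, 5.28, 5.41 and 5.48 in heterozygous samples and 6.40 and 6.32 in normal samples. The homozygous sample was higher than heterozygous tumors by 1.79 (SE 0.14, adjusted p = 0.00368), and against normal pituitary neither genotype reached 2-fold for Akap6, with 0.83 and -0.96. Both of these differences from normal had a limma adjusted p below 0.05, so the fold limit alone left them uncalled. Of 9 anchoring proteins tested, Akap12 alone was called against normal, lower in heterozygous tumors (log2 fold change -1.17, adjusted p = 0.0121), a call that was lost without either normal sample and with arrays 1 and 2 alone. Crhr1 is also in the list of melanotroph and corticotroph markers. Of the 7 tested there, limma called 2 higher in the homozygous sample than in heterozygous tumors, Crhr1 and Neurod1, and 1 lower, Pomc. Neurod1 had a log2 signal of 6.85 in the homozygous sample, 3.91 to 4.33 in heterozygous samples and 6.74 and 7.02 in normal samples. The list did not rise as a whole, since the median log2 difference of its 7 markers was -0.43, lower in the homozygous sample. Of 5 thyrotroph markers, 1 was called higher and 0 lower. The part of such cells in the level of Crhr1 was not tested.

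Enzymes that make and break down cAMP changed in both directions in heterozygous tumors. Of 7 adenylyl cyclases tested, Adcy2 and Adcy5 fell, with log2 fold changes of -2.29 (SE 0.22, adjusted p = 0.000774) and -2.04 (SE 0.37, adjusted p = 0.00857), and Adcy1 and Adcy7 rose, with 1.24 (SE 0.20, adjusted p = 0.00529) and 1.12 (SE 0.32, adjusted p = 0.0436). The call of Adcy7 was kept in 13 of 21 alternatives, and it was lost without either normal sample, without heterozygous sample 1-2, 3-4 or 7-8, with no filter, with Xist as a covariate and with the one-way F test. The call of Adcy5 was lost without either normal sample, that of Adcy1 without normal sample 1, and that of Adcy2 held in all. Of 12 other phosphodiesterases tested, Pde1b and Pde1a, which calcium and calmodulin activate, rose, with 1.32 (SE 0.16, adjusted p = 0.00197) and 1.08 (SE 0.19, adjusted p = 0.00760), and Pde8b fell, with -1.66 (SE 0.35, adjusted p = 0.0149). Without either normal sample the calls of Pde1a and Pde8b were lost, as was that of Pde1a without heterozygous sample 5-6. In the homozygous sample the same 7 genes had log2 fold changes from -1.40 to 0.70, and none was called.

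None of 7 G proteins of adenylyl cyclase, 4 cAMP exchange factors and 5 CREB family members and coactivators was called in any comparison by limma, and at an unadjusted p under 0.05 none was higher or lower in the homozygous sample and 2 were higher and 3 lower in heterozygous tumors. With 5.53% of all genes called higher and 4.55% lower in heterozygous tumors, 0 of these 16 does not set them apart. Gnas, the stimulatory G protein, had log2 fold changes of 0.0073 in the homozygous sample and 0.03 in heterozygous tumors. Gnai1, another of the G proteins, had 0.19 in the homozygous sample and 0.82 in heterozygous tumors (limma adjusted p = 0.0109), under the 2-fold limit. All of its heterozygous samples lay above both normal samples. Of 7 other protein kinase A subunits and inhibitors, Pkib, which encodes an inhibitor of the catalytic subunit, rose in heterozygous tumors. Its log2 signal was 8.67 in the homozygous sample, 9.03, 9.18, 9.61 and 9.05 in heterozygous samples and 7.37 and 7.64 in normal samples, so all tumor samples were above both normal samples. The log2 fold change of Pkib was 1.17 in the homozygous sample (adjusted p = 0.0728) and 1.71 in heterozygous tumors (SE 0.19, adjusted p = 0.00128), and the heterozygous call held in all 21 alternatives. Prkacb, Pkig and Prkar2b of the same list differed in heterozygous tumors by less than 2-fold and were not called. Their log2 fold changes were 0.60, 0.65 and -0.54 (limma adjusted p = 0.0408, 0.0397 and 0.0473).

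Of 7 genes known as CREB targets, Bdnf, a neurotrophin, rose and Nr4a1, an orphan nuclear receptor, fell in heterozygous tumors. Bdnf had a log2 signal of 10.17 in the homozygous sample, 10.57, 10.67, 11.05 and 10.16 in heterozygous samples and 9.13 and 9.09 in normal samples, with all tumor samples above both normal samples. Its log2 fold change was 1.06 in the homozygous sample (adjusted p = 0.138) and 1.501 in heterozygous tumors (SE 0.22, adjusted p = 0.00400), and the heterozygous call held in all 21 alternatives. Nr4a1 had 10.25 in the homozygous sample, 8.23, 8.97, 9.32 and 9.91 in heterozygous samples and 10.93 and 10.68 in normal samples, with all tumor samples below both normal samples. Its log2 fold change was -0.55 in the homozygous sample (adjusted p = 0.668) and -1.69 in heterozygous tumors (SE 0.40, adjusted p = 0.0237), and the heterozygous call was lost without heterozygous sample 3-4 and without either normal sample. Fos, Junb, Per1, Crebzf and Ppargc1a were called in no comparison.

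**Figure D4:**
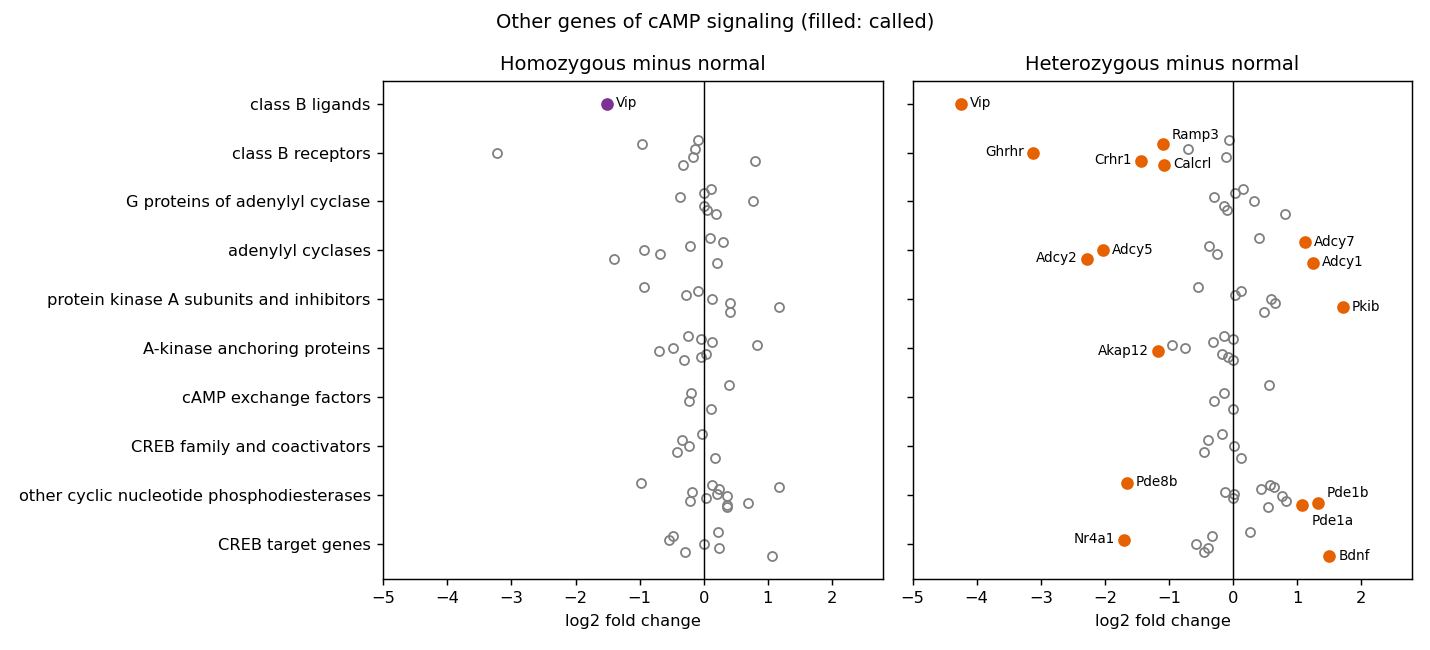
Log2 fold change against normal pituitary (x axis) of the 66 tested genes of the other cAMP lists (y axis), in the homozygous sample (left) and heterozygous tumors (right), with called genes filled and named. Vip is the called gene in the homozygous sample, and 16 genes are called in heterozygous tumors, from -4.25 for Vip to 1.71 for Pkib.

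The dopamine D2 receptor Drd2, which lowers cAMP through an inhibitory G protein, had a log2 signal of 10.42 in the homozygous sample, 11.15 ± 0.52 across heterozygous tumors (SD, n = 4) and 10.41 ± 0.11 (SD, n = 2) in normal pituitary. The heterozygous difference, 0.74, did not pass the test (adjusted p = 0.127 from limma).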

How the data were processed

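Total RNA of homozygous POMC KO tumors, heterozygous POMC KO tumors and normal pituitary of mice was measured on 12 Affymetrix arrays. The deposited values are log2 signals that the authors made with the Robust Multichip Average algorithm (RMA). The submitters' processing notes name Affymetrix Expression Console for this step and the study's methods name GeneSpring GX, and the versions used are not given with the values. The algorithm fits all arrays together and compresses differences at low signal. Neither detection calls nor dates entered the work, so signal near the floor was handled by a filter.

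The table has 45101 probe sets. The annotation gave a single gene for 34945, more than 1 for 932 and none for 9160, and the other 64 were controls. Those with a signal of at least 5.74, the overall median, on 2 or more arrays were tested, which left 24486 probe sets and 12316 genes. Near-identical tumor arrays were averaged in pairs, an inference from their values, which gave 7 samples and 4 residual degrees of freedom. The series' design text counts 1 mouse per array, which the near-identical pairs go against, so p-values measure the spread between these 7 samples, and 12 separate arrays were an alternative. Groups were compared with limma 3.58.1 in R 4.3.3 in 1 fit over all 3 groups, with Benjamini-Hochberg adjustment over all tested probe sets. Where a gene had several tested probe sets, the brightest stands for it.

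The genes and lists were chosen with earlier results of these data known. The genes named are all 10 genes of the set, up to 4 called genes of each further list with the largest changes, the 3 genes most like Adcyap1r1, Pomc and Drd2. Lyz2, Gnas, Gnai1, Prkacb, Pkig, Prkar2b, other marker genes and CREB targets without a call fall outside this rule. They are named beside the results they touch, and Xist is given as a check of sex. In simulated data with 200 changed probe sets of 24486, a log2 change of 1.5 was recovered for 84.5% in the homozygous sample and 97% in heterozygous tumors, with 5 and 2 false calls. For a log2 change of 2.5, recovery was 96.5% and 99.5%, with 14 and 5 false calls. The simulated noise was normal with the fitted spread of each probe set, equal in all groups, and both tumor genotypes got the same change. The homozygous figures thus rest on an assumed spread, which the homozygous sample, having no SD, cannot show. Promoter windows came from RefSeq (GRCm38.p6). Other filters, normalizations, treatments of the paired arrays, a one-way F test as in the methods, and the omission of each sample were tried.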

Additional observations from a re-analysis of the deposited data

Results flagged for a closer look

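Among 32 sets of 4 heterozygous samples checked for a sample far from the others, 2 held one, and chance gives about 1 in 20. In Prkaca (1450519_a_at), heterozygous sample 1-2 had a log2 signal of 9.55, against 8.95 to 9.04 in the other 3. In Pde4b (1422474_at), heterozygous sample 7-8 had 8.73, against 9.39 to 9.40 in the other 3. That sample was also the lowest heterozygous one for the mean of the macrophage markers (7.99). It was the highest for the means of gonadotroph (7.60), thyrotroph (8.66), somatotroph and lactotroph (11.03) and posterior lobe glia (6.91) markers. Its arrays had 2549 to 2760 probe sets more than 2-fold from a normal array, against 3073 to 3585 for the other heterozygous arrays. The part of these differences in the level of Pde4b was not tested.

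For 3 genes of the pathway, the homozygous sample differed from heterozygous tumors by the test of that difference in limma. The difference was 2.75 on the log2 scale for Vip (adjusted p = 0.00349), 2.25 for Crhr1 (adjusted p = 0.00368) and 1.79 for Akap6 (adjusted p = 0.00368), all higher in the homozygous sample. Each rests on 1 homozygous sample, and the heterozygous samples lay below the overall median signal for all 3, so the sizes are not exact. The part of cell types in these differences was not tested.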

How the results depend on the processing

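The count of called probe sets among the 16 stayed at 4 in heterozygous tumors and at 0 between homozygous and heterozygous tumors under every alternative, except that it was 3 in heterozygous tumors without normal sample 1. Leaving out 1 sample at a time thus gave 3 to 4 and 0 to 0. In the homozygous sample the count of 2 was less firm. Leaving out 1 sample at a time gave 0 to 2, with 0 without either normal sample and 1 without heterozygous sample 3-4, 5-6 or 7-8. It was 1 with no filter on low values, 1 with a filter on 6 arrays, 1 with arrays centred on housekeeping genes, 1 with arrays centred on their medians and 1 with Xist as a covariate, and the probe set lost in these was Pde4b 1442700_at. Of the repeats of single log2 fold changes, 610 kept direction and call, 18 lost the call and 14 changed sign, none of them among called values. In the homozygous sample against normal, the mean over probe sets gave 0.034 for Prkar1a and 0.16 for Creb1, housekeeping centring gave -0.00086 for Crem and -0.12 for Pde4d, and Creb1 ranged from -0.26 to 0.035 with 1 sample left out. In heterozygous tumors, the mean over probe sets gave -0.080 for Crem. The cause was not tested.

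Groups share array numbers 1 and 2, so these arrays were also fitted with and without the number as a replicate block. The counts were 2, 4 and 0 both ways, and the block changed no call among the 16. In these fits, with and without the block, the sign turned for Pde4d (-0.0065), Prkaca 1450519_a_at (0.10) and Adcyap1r1 1450799_at (0.056) in heterozygous tumors, and for Pde4b 1442700_at (0.26) between homozygous and heterozygous tumors. Deviations of arrays with the same number correlated between -0.11 and 0.10. In a group of 2 arrays these deviations mirror each other, so the check cannot decide whether the numbers pair the samples.

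Over all tested probe sets the homozygous count of 571 was 1203 with 12 separate arrays, 1261 with the one-way F test, 940 with a random block, 1412 and 1413 with arrays 1 and 2 alone, 330 without heterozygous sample 3-4, and 73 and 64 without normal sample 1 and 2. The heterozygous count of 2126 was 5423 with no fold limit. Between genotypes the count of 61 was 498, 575 and 222 in the first 3 of these settings, 1284 and 1283 with arrays 1 and 2, 97 with no filter, 10 with the filter on 6 arrays, 234 without heterozygous sample 7-8, 34 without 3-4, and 33 without either normal sample. In the homozygous sample 308 were higher and 263 lower, against 194 and 552 under housekeeping centring, which moved the median of all probe sets to -0.25, and 165 and 243 with Xist as a covariate.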
